A study of Mus musculus with 3 samples.

Results

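Chemokines and interleukins are small secreted signalling proteins that call leukocytes into tissue or direct their behaviour. Chemokines are grouped by the spacing of their first cysteines into CC, CXC, CX3C and XC classes and act on G protein-coupled receptors, whereas interleukins act on receptor chains that are often shared between ligands. In the brain, astrocytes are known as a source of some of these ligands after injury or inflammation, and many of the genes are kept at a low level until they are induced. The genes described here are those whose symbol on the array platform matches a Ccl, Cxcl, Cx3cl, Xcl or Il ligand name and that were read by probe sets annotated to 1 gene, with the receptors left out and Cxcl10 not included. They numbered 60 of 18194 genes, 32 chemokine and 28 interleukin ligands, read by 85 probe sets.

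The samples were 3 astrocyte preparations labelled wt, made in culture from mouse embryonic stem cells. The stem cells went through embryoid bodies (4 days) and selection in ITSFn medium (5 to 7 days) to become neural precursor cells kept in FGF2 and EGF2. At 18 passages from the embryoid bodies the growth factors were withdrawn and 5% FBS was added for 5 days. Total RNA of each preparation was read on a 1-colour Affymetrix Mouse Genome 430 2.0 array, and the 3 arrays form 1 group with no contrast, no untreated precursors and no stimulated cells. The labels do not say whether the preparations came from separate cultures, so the p-values cover the variation among these 3 arrays alone, which could be technical.

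The comparison the design allows is each gene's signal against background. Background was the 95th percentile of log2 signal over 78 olfactory, vomeronasal, trace-amine and taste receptor genes, which gave limits of 3.99, 4.10 and 4.07 on replicates 1, 2 and 3. A gene is called above background where the differences between its log2 signal and the 3 limits had a Benjamini-Hochberg adjusted p below 0.05 in limma's one-sample, one-sided test over 18116 genes. Levels are given as log2 signal in the order of replicates 1, 2 and 3, with mean ± SD (n = 3), and they are compared with the limit rather than between genes, since probe sets bind their targets unequally. All 10 astrocyte markers tested were above background, against 1 of 17 microglia and macrophage, 0 of 6 lymphocyte, 1 of 8 endothelial and 0 of 6 mesenchymal markers. Over all genes tested, 58.3% were above background. The counts of 0 come from limma's adjusted p and were also 0 at an unadjusted p below 0.05. In bulk samples fewer cells of a type and less RNA per cell cannot be told apart.

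Most of the ligand genes were at background level. Of the 60 members, 10 were above background (16.7%), where 58.3% of all genes tested were (10570 of 18116). The members' median lay at -1.10 log2 units from the limit, against 1.76 over all genes tested. Without adjustment of limma's p, 11 of 60 members passed 0.05 (18.3%), against 59.1% of all genes. Signal lay over the limit on every array for 13 members (21.7%), against 59.8% of all genes. It lay over the limit on no array for 35 of 60 members, against 5412 of 18116 genes tested. The 10 genes above background were Cx3cl1, Ccl2, Ccl4, Ccl5, Ccl25, Cxcl1, Cxcl11, Il18, Il33 and Il17d. They comprise 4 of 18 CC chemokines, 2 of 12 CXC chemokines, the CX3C chemokine and 3 of 28 interleukins.

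**Figure D1:**
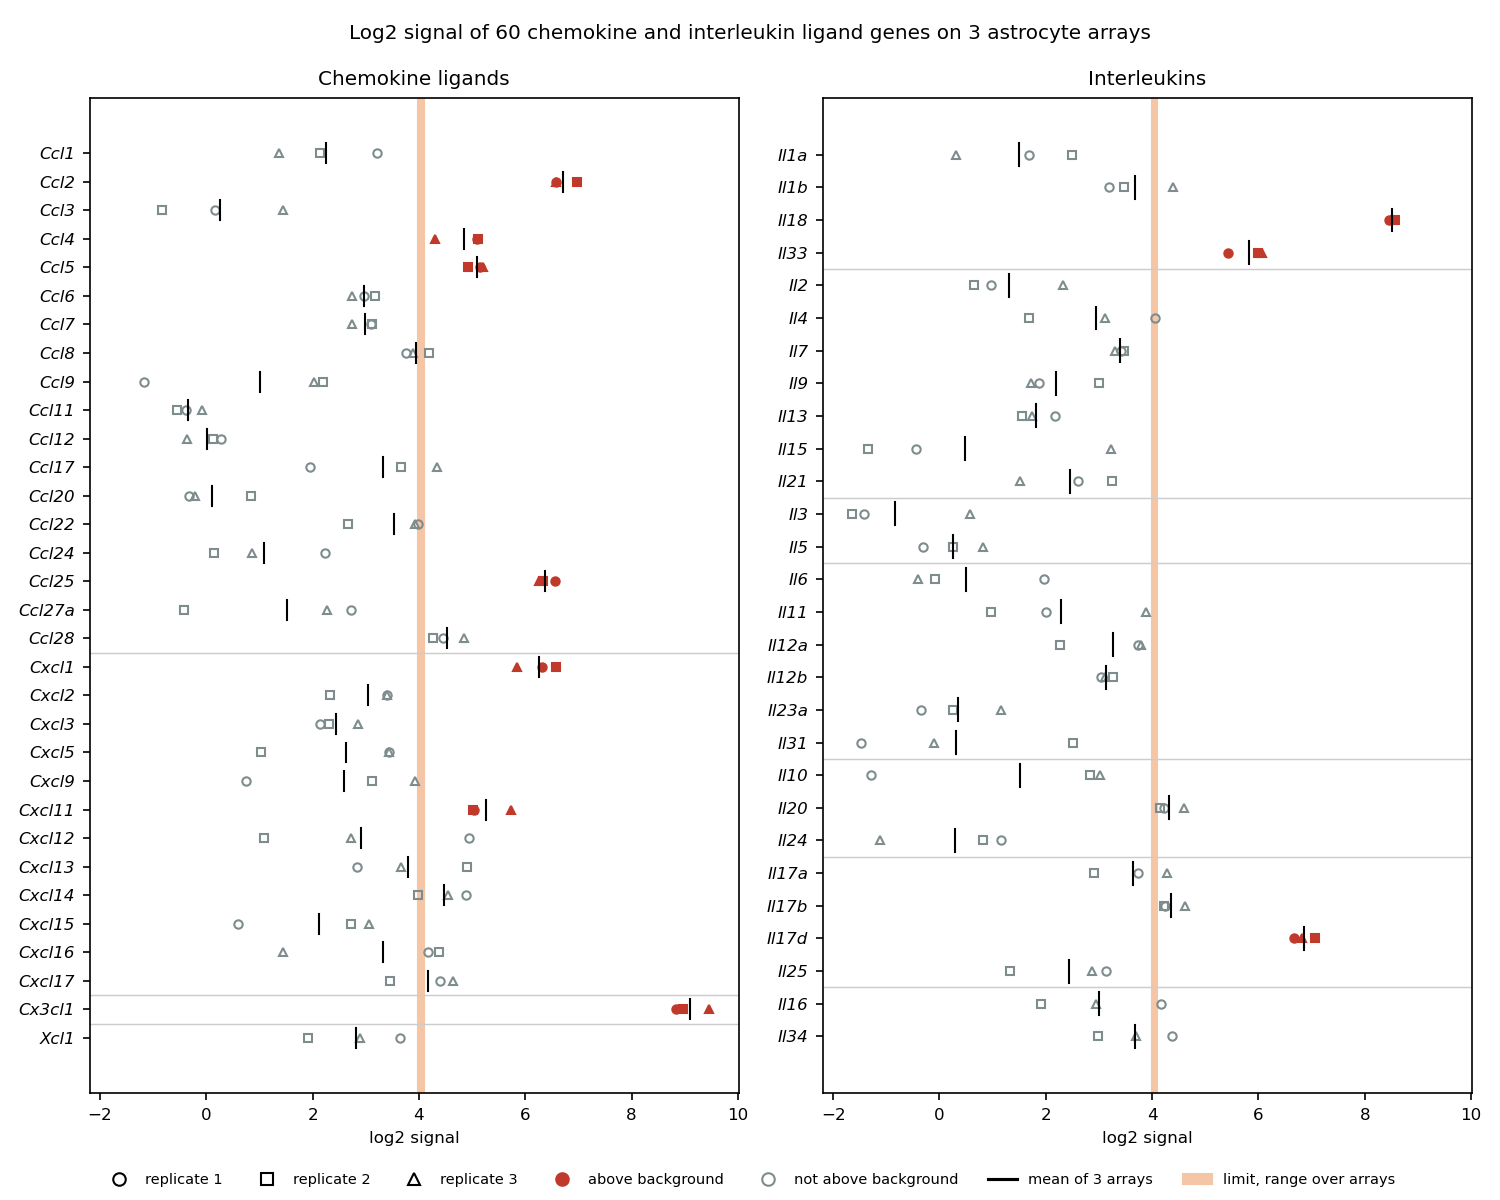
Log2 signal of the 60 ligand genes (x axis) on the 3 arrays, with genes down the page grouped by class or family, a symbol for each replicate and a black bar at the mean. The shaded band spans the background limits of 3.99 to 4.10, and the 10 genes in red lie to its right on all 3 arrays.

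Cx3cl1 encodes fractalkine, the one CX3C chemokine, which is made as a membrane-bound protein on a mucin-like stalk and is known in the brain as a signal to microglia. Its signal was 8.83, 8.98 and 9.46 (9.09 ± 0.33), which was 5.04 log2 units over the limit (limma adjusted p = 5.79e-05). All 3 arrays were far over the limit. Of its 4 probe sets, 1415803_at and 1415804_at were above background, at 5.04 and 2.65 log2 units over the limit, while 1421610_at and 1441884_x_at were at -1.19 and -3.78. With the median of the 4 probe sets in place of the brightest, Cx3cl1 was at 0.73 log2 units with the same limits and did not pass (limma adjusted p = 0.0723).

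Fractalkine is released from the membrane by the proteases ADAM10 and ADAM17. Adam10 was at 10.11, 10.65 and 10.73 and Adam17 at 8.69, 9.10 and 9.16, both above background on all 3 arrays (limma adjusted p = 4.05e-05 and 4.53e-05). The fractalkine receptor gene Cx3cr1, a microglial marker, was at 2.88, 3.24 and 3.13 and lay under the limit on each array. The promoter window of Cx3cl1 (GRCm38.p6, chr8:94771930-94772229, plus strand, from RefSeq) is shown because this ligand passed by more than 5 log2 units. It holds both a GC box motif (GGGCGG) and a TATA box motif (TATAAA), which are in capitals. They begin 27 and 6 bases before the annotated start.
Cx3cl1: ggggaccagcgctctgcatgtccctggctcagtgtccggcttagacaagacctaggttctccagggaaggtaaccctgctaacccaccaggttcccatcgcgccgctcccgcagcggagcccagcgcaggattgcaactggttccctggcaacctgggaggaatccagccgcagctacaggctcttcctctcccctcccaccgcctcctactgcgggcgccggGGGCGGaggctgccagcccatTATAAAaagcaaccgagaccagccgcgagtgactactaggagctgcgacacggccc

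Among CC chemokines, Ccl2, which attracts monocytes through CCR2, was at 6.58, 6.97 and 6.58 (6.71 ± 0.22), 2.66 log2 units over the limit (limma adjusted p = 0.000159). It was read by 1 probe set and lay over the limit on every array. Ccl25, a chemokine best known from thymus and small intestine, was at 6.55, 6.33 and 6.26 (6.38 ± 0.15), 2.33 log2 units over the limit (limma adjusted p = 0.000248). Both of its probe sets were above background, and among the 5 ligands above background with several probe sets it was the only such gene.

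Ccl5, which attracts T cells and monocytes, lay nearer the limit at 5.14, 4.92 and 5.21 (5.09 ± 0.15), 1.04 log2 units over it (limma adjusted p = 0.00283). Ccl4, a chemokine of the CC class, was at 5.09, 5.12 and 4.31 (4.84 ± 0.46), 0.79 log2 units over the limit (limma adjusted p = 0.0306). All 3 arrays were over the limit for both genes, with replicate 3 of Ccl4 the closest. Without replicate 1 or without replicate 2, Ccl4 did not pass (limma adjusted p = 0.113 and 0.119). Just outside the threshold, Ccl28, an epithelial chemokine, was at 4.46, 4.26 and 4.84 and 0.47 log2 units over the limit (limma adjusted p = 0.055). These values are from its brightest probe set, and the others, 1450218_at and 1450217_at, were at -1.39 and -1.84 log2 units from the limit.

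The other CC genes not above background were Ccl1, Ccl3, Ccl6, Ccl7, Ccl8, Ccl9, Ccl11, Ccl12, Ccl17, Ccl20, Ccl22, Ccl24 and Ccl27a. With Ccl28, these 14 had means from -0.34 to 4.52. Ccl7, a monocyte attractant like Ccl2, was at 3.09, 3.12 and 2.74, under the limit on every array. Ccl20, the ligand of CCR6, was at -0.32, 0.84 and -0.21, also under it on every array.

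Ccl2, Ccl4, Ccl5, Cx3cl1 and Cxcl1 were above background, while the ligand genes directly beside them were not. Of all 60 members 10 passed (16.7%), so most ligand genes did not pass wherever they lie. In the gene order of the GRCm38.p6 RefSeq table, Ccl7 is the next protein-coding gene after Ccl2, and its distance from the limit was -1.07 log2 units. Ccl3 directly precedes Ccl4 and was at -3.79. Ccl9 directly follows Ccl5 and was at -3.03. Cx3cl1 stands between Ccl22 and Ccl17, both ligands of CCR4, which were at -0.53 and -0.73. Cxcl1 stands between Cxcl15 and Cxcl2, which were at -1.93 and -1.01. These are separate calls for each gene, and no test of a difference between neighbours was made.

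The CXC chemokines that attract neutrophils through CXCR2 were at background apart from Cxcl1. Cxcl1 was at 6.32, 6.57 and 5.85 (6.25 ± 0.37), 2.20 log2 units over the limit (limma adjusted p = 0.000717), and over it on each array. Cxcl2 was at 3.39, 2.32 and 3.41, Cxcl3 at 2.13, 2.32 and 2.86, and Cxcl5 at 3.43, 1.03 and 3.44. These 3 genes lay under the limit on every array. The call for Cxcl1 rests on 1441855_x_at and 1457644_s_at, whose suffixes mark probe sets that can bind several transcripts, at 2.20 and 1.21 log2 units over the limit. The remaining probe set, 1419209_at, was at 3.24, 2.64 and 0.67, which is -1.87 log2 units from the limit, and with such probe sets left out Cxcl1 was not above background.

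The promoter windows of Cxcl1, Cxcl2 and Cxcl3 are shown with that of Il6 because they share an element although only Cxcl1 was above background. Each window runs from 250 bases before to 50 bases after the annotated start, is on the plus strand of GRCm38.p6 and comes from RefSeq. Capitals mark matches to the kappa B consensus, the motif bound by NF-kappa B, which was read on both strands as G, G, G, a purine, any base, any base, a pyrimidine, a pyrimidine, C and C. In the 3 Cxcl windows the forward match GGGAATTTCC overlaps a reverse-strand match shifted by 1 base, and the match starts 71 bases before the start of Cxcl1, 97 before that of Cxcl2 and 73 before that of Cxcl3. In Il6 the match is GGGATTTTCC, 44 bases before the start. The windows are chr5:90890995-90891294 for Cxcl1, chr5:90903649-90903948 for Cxcl2, chr5:90785851-90786150 for Cxcl3 and chr5:30012864-30013163 for Il6.
Cxcl1: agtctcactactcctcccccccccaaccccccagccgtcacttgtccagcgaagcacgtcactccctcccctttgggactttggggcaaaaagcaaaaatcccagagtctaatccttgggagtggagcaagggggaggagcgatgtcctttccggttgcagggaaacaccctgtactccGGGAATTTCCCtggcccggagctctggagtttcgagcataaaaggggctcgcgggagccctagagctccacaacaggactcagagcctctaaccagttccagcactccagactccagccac
Cxcl2: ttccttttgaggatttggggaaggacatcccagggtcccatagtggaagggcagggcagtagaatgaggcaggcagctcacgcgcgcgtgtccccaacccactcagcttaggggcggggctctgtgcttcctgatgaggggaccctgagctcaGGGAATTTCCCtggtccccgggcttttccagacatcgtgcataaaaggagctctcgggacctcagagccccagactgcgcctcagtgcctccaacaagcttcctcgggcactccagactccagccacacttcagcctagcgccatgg
Cxcl3: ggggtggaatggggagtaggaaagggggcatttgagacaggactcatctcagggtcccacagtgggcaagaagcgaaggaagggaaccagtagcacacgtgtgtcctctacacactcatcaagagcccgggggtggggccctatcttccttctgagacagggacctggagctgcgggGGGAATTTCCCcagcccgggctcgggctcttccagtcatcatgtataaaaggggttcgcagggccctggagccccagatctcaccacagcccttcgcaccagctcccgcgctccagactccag
Il6: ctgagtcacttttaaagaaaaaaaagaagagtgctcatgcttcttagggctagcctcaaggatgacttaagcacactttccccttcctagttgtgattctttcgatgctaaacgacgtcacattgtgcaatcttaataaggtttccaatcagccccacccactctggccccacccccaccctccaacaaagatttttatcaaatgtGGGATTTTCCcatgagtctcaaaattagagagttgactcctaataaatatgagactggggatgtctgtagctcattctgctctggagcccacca

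Of the 60 members, 42 had a promoter entry, with 51 windows in all, and 6 of the 42 were above background. Ccl2, Ccl4, Ccl5 and Cxcl11 had no entry and were not searched. The kappa B consensus was found in 9 of these windows (17.6%), against 8.46% of 32851 windows in the whole table. The 9 genes were Cxcl1, Cxcl2, Cxcl3, Il6, Il16, Ccl1, Ccl9, Ccl20 and Ccl27a, of which 1, Cxcl1, was above background. The TATA box motif, TATAAA on either strand, was in 17 windows (33.3%), against 13.6% of all windows, and 4 of its 16 genes were above background. GGGCGG was in 12 windows (23.5%), against 35.7%. The AP-1 motif TGANTCA was in 10 (19.6%), against 7.81%, and the STAT motif TTCNNNGAA in 4 (7.84%), against 8.30%. Above background were 1 of the 10 genes with GGGCGG, 0 of the 10 with AP-1 and 1 of the 4 with STAT. Motif matches are a description of these letters and not of binding.

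Of the chemokines that act on CXCR3, Cxcl11, an interferon-inducible ligand, was at 5.04, 5.01 and 5.74 (5.26 ± 0.41), 1.21 log2 units over the limit (limma adjusted p = 0.00576). This rests on 1419697_at, and its other probe set, 1419698_at, was at -1.12. With the median of both, Cxcl11 was at 0.05 log2 units and did not pass (limma adjusted p = 0.666). Cxcl9, also an interferon-inducible CXCR3 ligand, was at 0.74, 3.11 and 3.93, under the limit on every array.

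Cxcl12, the ligand that guides and retains precursor cells through CXCR4, was not above background on any of its 3 probe sets. The brightest gave 4.94, 1.09 and 2.72, so replicate 1 alone was over the limit. Cxcl14 was at 4.89, 3.99 and 4.54 and 0.42 log2 units over the limit, with replicate 2 under it (limma adjusted p = 0.146). Cxcl16, a membrane-bound chemokine that binds CXCR6, was at 4.18, 4.37 and 1.45, with replicate 3 under the limit. Cxcl13, Cxcl15 and Cxcl17 were not above background either, and the 10 CXC genes that did not pass had means from 2.12 to 4.47. Xcl1, the XC chemokine, had a mean of 2.81.

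**Figure D2:**
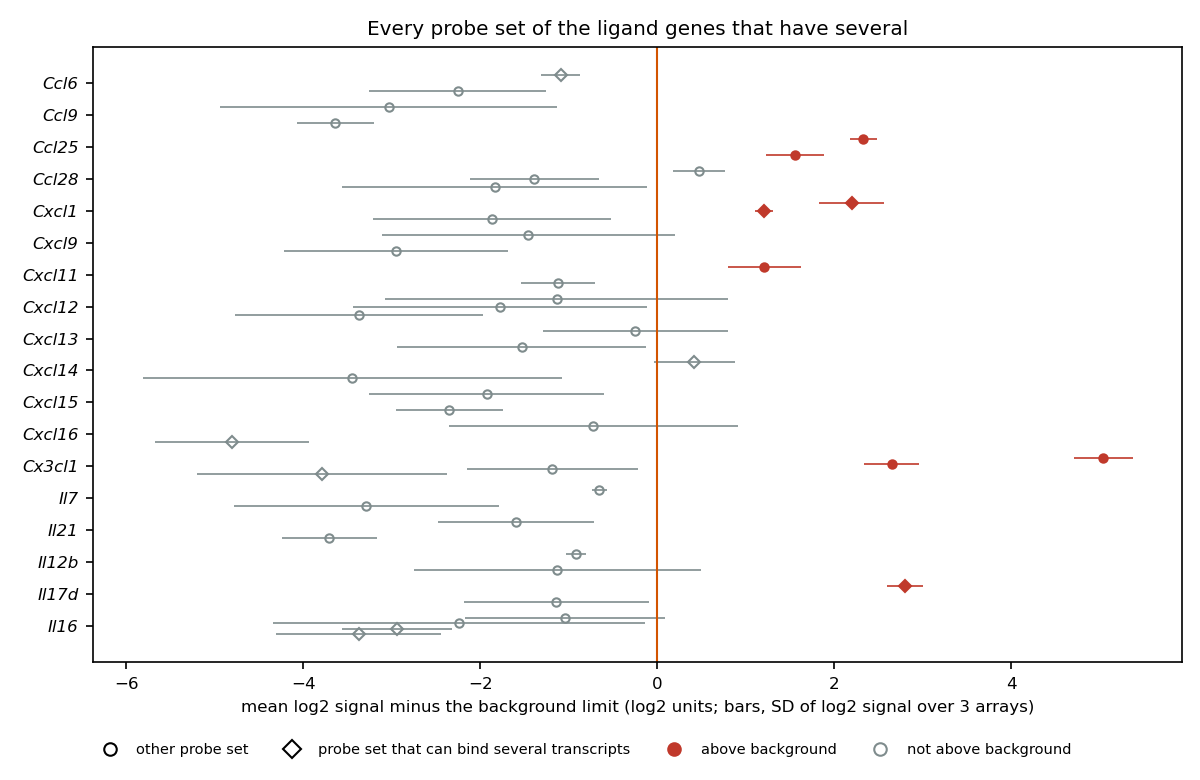
Mean log2 signal minus the background limit (x axis, log2 units) of each probe set of the 18 ligand genes with several, with bars for the SD of log2 signal over 3 arrays. Red marks probe sets above background and diamonds those that can bind several transcripts; both red marks of Cxcl1 and the red mark of Il17d are diamonds.

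The interleukins above background came from the IL-1 and IL-17 families. Il18, made as a precursor that caspase-1 cleaves, was at 8.46, 8.57 and 8.51 (8.51 ± 0.05), 4.46 log2 units over the limit (limma adjusted p = 4.07e-05). Its SD was the lowest of the 10 genes above background, whose SDs had a median of 0.28 and a maximum of 0.46. Il33, a nuclear protein released from damaged cells as an alarm signal, was at 5.43, 5.99 and 6.07 (5.83 ± 0.35), 1.78 log2 units over the limit (limma adjusted p = 0.000952). Each of these genes was read by 1 probe set and lay over the limit on every array.

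The other IL-1 family genes did not pass. Il1a was at 1.68, 2.49 and 0.30, under the limit on every array. Il1b, a secreted IL-1, was at 3.18, 3.48 and 4.40, with replicate 3 over the limit. Casp1, which encodes caspase-1, was at -0.95, -0.58 and -0.13, and Nlrp3, a sensor of the inflammasome in which it is activated, at 3.25, 3.52 and 4.89. The natural antagonists Il1rn and Il18bp were at 2.85 ± 0.79 and 3.76 ± 0.68. None of these 4 genes was above background (limma), nor were Casp4, Pycard, Gsdmd and Ebi3 of the same list, so that 2 of its 10 genes passed, Adam10 and Adam17.

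Il17d, an IL-17 family member less studied than Il17a, was at 6.67, 7.07 and 6.81 (6.85 ± 0.20), 2.80 log2 units over the limit (limma adjusted p = 0.000119). The call rests on 1435714_x_at, a probe set that can bind several transcripts. The other probe set of the gene, 1456612_at, was at 3.71, 1.73 and 3.30, which is -1.14 log2 units from the limit. Il17b was at 4.24, 4.23 and 4.61, over the limit on each array, and did not pass (limma adjusted p = 0.0974). Il17a had a mean of 3.64 and Il25, which drives type 2 immunity, one of 2.44.

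No gene of the IL-6 and IL-12 family passed, and all 6 lay under the limit on every array, with no unadjusted limma p below 0.05. Il6 was at 1.96, -0.09 and -0.40 (0.49 ± 1.28), Il11 at 2.00, 0.98 and 3.88, and Il12a at 3.74, 2.27 and 3.79. The remaining members, Il12b, Il23a and Il31, had means between 0.31 and 3.13. None of the 7 genes of the common gamma chain and IL-13 group passed either. Among them Il4, a signal for type 2 T cells, was at 4.06, 1.68 and 3.11, with replicate 1 over the limit, and Il15, which sustains natural killer and memory T cells, was at -0.44, -1.34 and 3.23. Il2, Il7, Il9, Il13 and Il21 lay under the limit on every array.

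Il10, an anti-inflammatory cytokine, was at -1.29, 2.83 and 3.02, and Il24 had a mean of 0.28. Il20 was at 4.22, 4.15 and 4.59, over the limit on each array, without passing (limma adjusted p = 0.141). Il34, a ligand of the CSF1 receptor, was at 4.37, 2.98 and 3.70, with replicate 1 over the limit, and Il16 had a mean of 3.01. The haematopoietic cytokine genes Il3 and Il5 had means of -0.83 and 0.25. Members not above background spread widely between arrays, with a median SD of 0.87 over 50 genes, against 0.83 over all genes not above background. For the 10 members above background the median SD was 0.28, against 0.24 over all genes above background.

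For 6 of the 10 ligands above background (Cx3cl1, Ccl2, Ccl5, Ccl25, Cxcl1 and Il18), no measured gene of a signalling receptor listed for them was above background. Ackr1, an atypical receptor that also binds Ccl2, Ccl5 and Cxcl1, was above it. The atypical receptor genes Ackr2, Ackr4 and Ccrl2 were not, at -0.22, -2.62 and -0.77 log2 units from the limit. Of 16 measured chemokine receptor genes 2 were above background (12.5%, where 58.3% of all genes were). They were Cxcr4 at 10.24, 10.40 and 10.41 (limma adjusted p = 3.85e-05) and Cxcr3 at 5.00, 4.50 and 4.55 (limma adjusted p = 0.0285). Cxcr3 did not pass without replicate 1, 2 or 3, with limma adjusted p from 0.0661 to 0.0917. Of 5 atypical receptor genes, whose products bind chemokines without usual G protein signalling, 2 were above background (40.0%, against 58.3% of all genes). Ackr3 was at 10.24, 10.57 and 10.55 (limma adjusted p = 3.85e-05) and Ackr1 at 5.26, 5.43 and 5.66 (limma adjusted p = 0.000973), each on 1 probe set whose suffix marks possible binding to several transcripts.

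Both receptors of Cxcl12 were thus above background where the ligand gene was not. Ackr3 also binds Cxcl11, as does Cxcr3. Ccr2, the receptor of Ccl2, was at 3.66, 2.85 and 2.48, and Ccr9, that of Ccl25, at 0.79, 1.78 and 2.39. Cxcr2, that of Cxcl1, was at 0.15, 0.38 and -0.10. Ccr1 and Ccr3, which bind Ccl5 and Ccl7, had means of 1.55 and 0.38. These 5 genes lay under the limit on every array. Ccr6 and Cxcr6, the receptors of Ccl20 and Cxcl16, had means of 3.74 and 1.38 and did not pass.

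**Figure D3:**
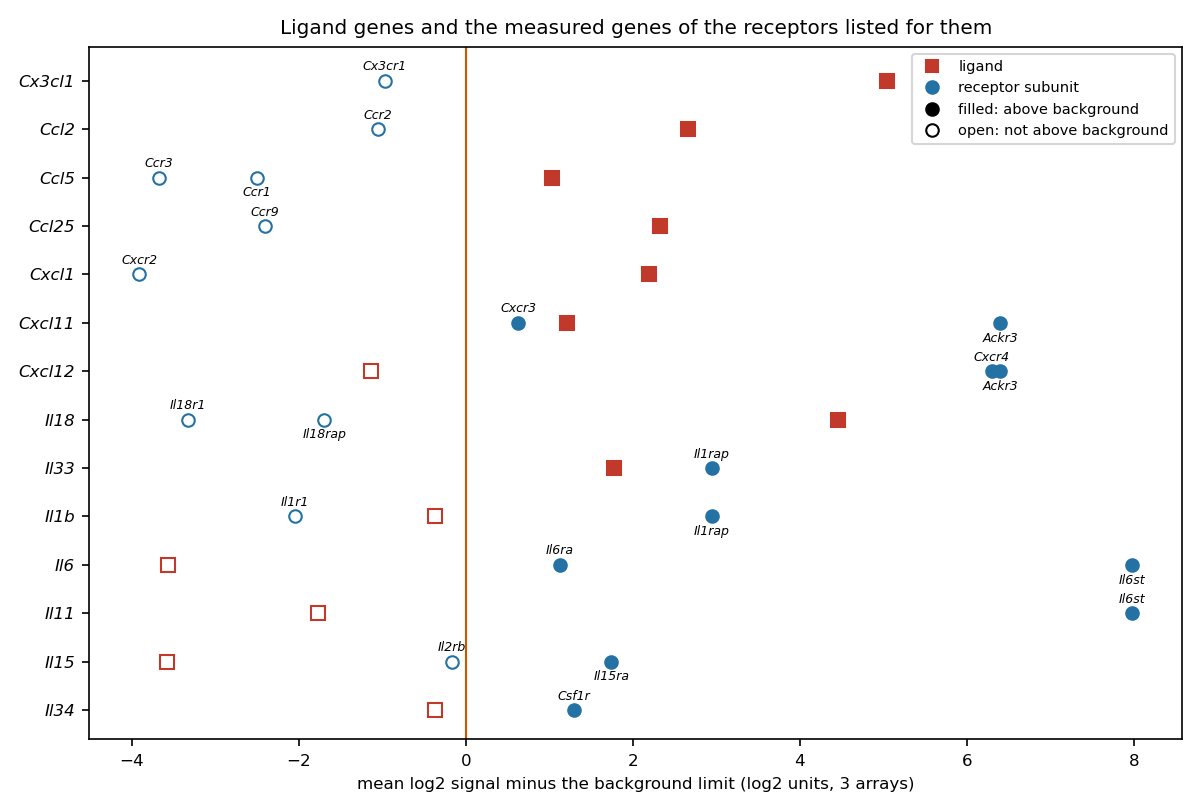
Mean log2 signal minus the background limit (x axis, log2 units, 3 arrays) of 14 ligand genes (red squares) and of the measured genes of the receptors listed for them (blue circles; Ackr1, which binds Ccl2, Ccl5 and Cxcl1 and was above background, is not drawn), with filled marks above background. Cx3cl1, Ccl2, Ccl5, Ccl25, Cxcl1 and Il18 are filled with open receptor marks, and Cxcl12, Il1b, Il6, Il11, Il15 and Il34 are open with at least 1 filled receptor mark.

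Of 38 measured interleukin receptor genes 13 were above background (34.2%, where 58.3% of all genes were). Il6st, which encodes gp130, the subunit shared by the IL-6 family, was at 11.81, 11.97 and 12.32 (limma adjusted p = 3.85e-05). Il6ra, which encodes the chain specific to IL-6, was at 5.08, 5.42 and 5.04 (limma adjusted p = 0.00205). Lifr and Osmr, which pair with gp130, were at 8.24 ± 0.31 and 7.03 ± 0.30 and passed on 1 of 3 probe sets each. With the median of its probe sets, Lifr was at -0.037 and Osmr at 0.19 log2 units from the limit, and neither passed.

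On the IL-1 side, the accessory chain Il1rap was at 6.88, 7.03 and 7.09, above background on 2 of 5 probe sets. The decoy receptor Il1r2 was at 7.41, 7.42 and 7.11, above background (limma adjusted p = 9.84e-05). The signalling receptor Il1r1 was at 0.78, 3.60 and 1.64, and the IL-18 receptor genes Il18r1 and Il18rap at 0.73 ± 1.65 and 2.36 ± 1.18. These 3 genes lay under the limit on every array. The other receptor genes above background were Il15ra, Il3ra, Il10rb, Il17rc, Il17rd, Il17re and Csf1r, with means of 5.79, 4.96, 5.94, 6.87, 5.16, 5.78 and 5.34. With the median of their probe sets and the same limits, Il10rb, Il17rd, Il17re and Csf1r did not pass (limma adjusted p = 0.517, 0.0542, 0.444 and 0.213). After removal of probe sets that can bind several transcripts, Csf1r did not pass (limma adjusted p = 0.489) and Il17rc was at -1.36 log2 units from the limit. Il4ra, Il10ra, Il2rb, Il12rb1 and Il12rb2, which serve Il4, Il10, Il15 and Il12a, had means of 1.94, 0.73, 3.89, 2.27 and 0.44 and did not pass.

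Over 77 listed pairs of a ligand gene and a measured receptor gene, which hold none with Ackr1, both were above background in 3, the ligand alone in 8, the receptor alone in 14 and neither in 52. The 3 pairs were Cxcl11 with Cxcr3, Cxcl11 with Ackr3, and Il33 with Il1rap, an accessory chain. Another 12 listed pairs, Il33 with Il1rl1 among them, had a receptor gene that was not measured. With the median of its 5 probe sets, Il1rap was at 0.13 log2 units and did not pass (limma adjusted p = 0.405).

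**Figure D4:**
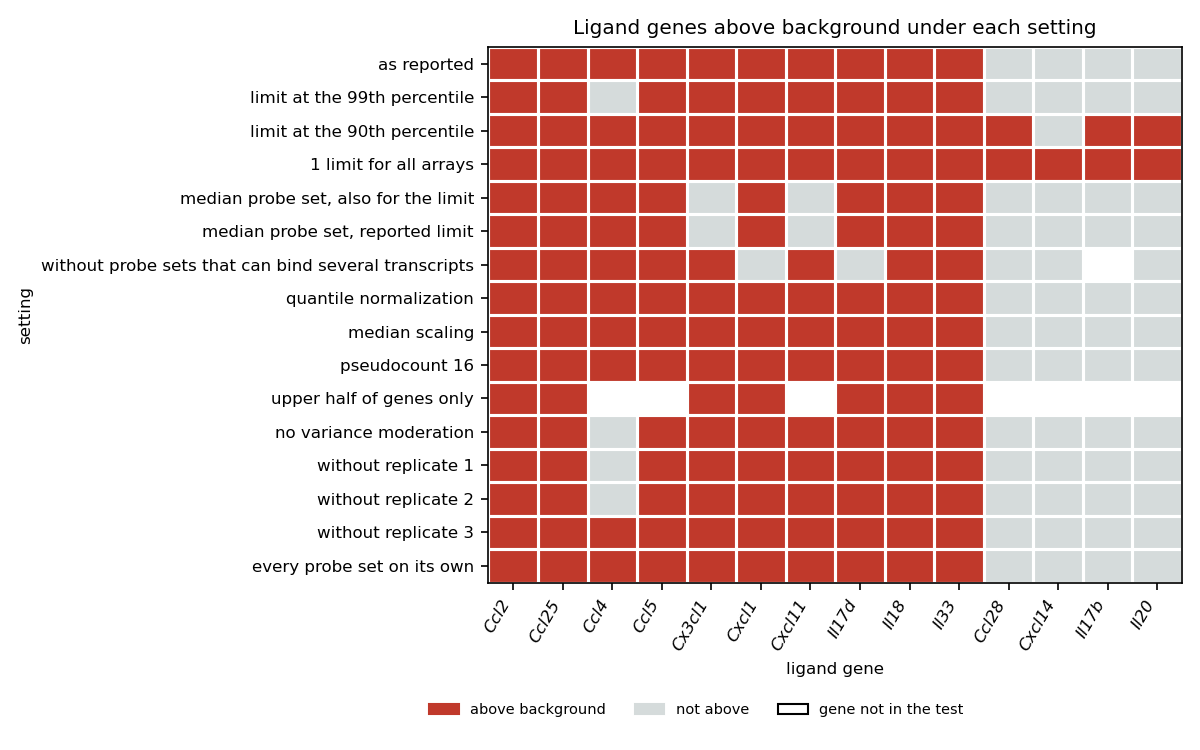
Ligand genes (x axis) that were above background (red), not above it (grey) or not in the test (white) as reported and under 15 other ways of processing (y axis). Ccl2, Ccl25, Il18 and Il33 are red in every line, and Ccl28, Il17b and Il20 are red with the limit at the 90th percentile and with 1 limit for all arrays. The line for median scaling could not differ from the reported one.

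Regulators of cytokine genes were above background in 17 of 19 measured cases (89.5%, against 58.3% of all genes). They included Rela, the main activating subunit of NF-kappa B, at 5.19 log2 units over the limit, its inhibitor Nfkbia at 6.78, and Cebpb and Cebpd at 4.66 and 5.69. Zfp36, which promotes decay of cytokine mRNAs, was at 3.19, and the interferon-induced factor Irf1 at 3.34. The members that did not pass were Rel and Zc3h12a, at -0.48 and -0.37.

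**Figure D5:**
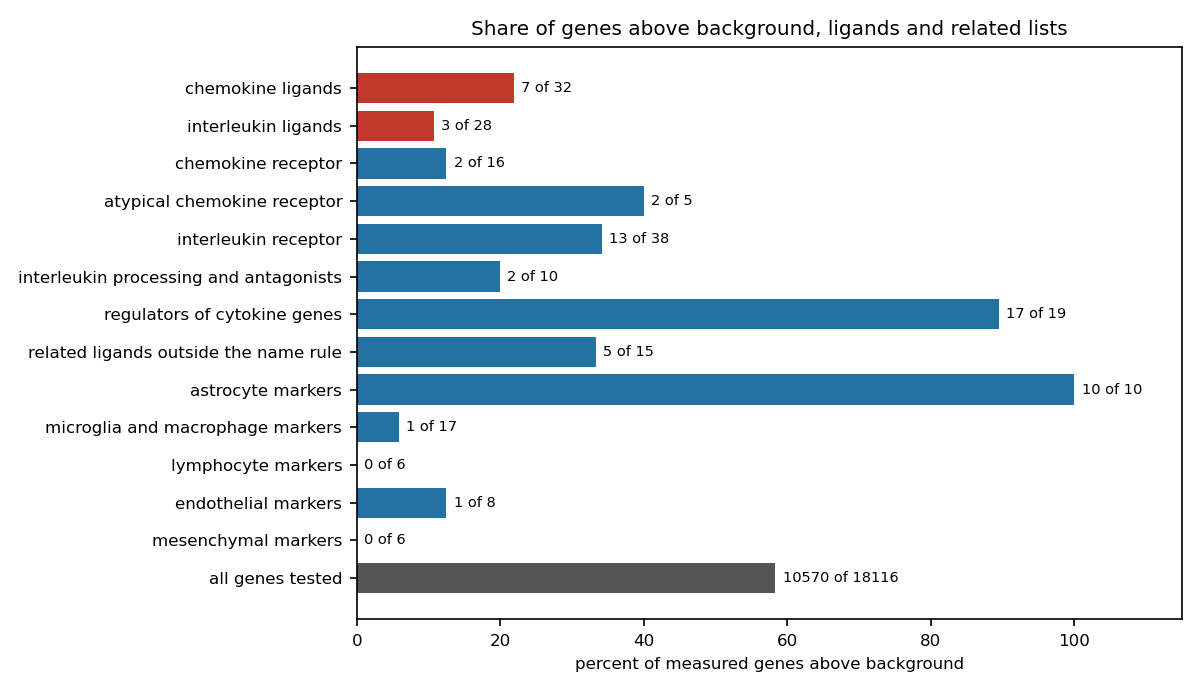
Percent of measured genes above background (x axis, from 0) in the chemokine and interleukin ligands (red), in related lists and marker lists (blue) and over all genes tested (grey), with counts beside the bars. The ligand bars stand at 7 of 32 and 3 of 28, against 10570 of 18116 for all genes.

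Chemokine genes are also made by microglia and macrophages, so the levels of those markers are given beside the ligands. Of 17 such markers 1 was above background, Csf1r, on 1 of 3 probe sets, and 9 lay under the limit on every array. Their summed signal was 170 to 221 on the 3 arrays, with the limit not subtracted and 16 of the 17 not above background. No marker was listed at 0. The part of other cell types in the ligand signals was not tested.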

How the data were processed

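Expression was measured in 3 samples on 1-colour Affymetrix Mouse Genome 430 2.0 arrays, per the labels' protocols. The authors deposited 1 linear intensity per probe set and array for 45101 probe sets. GCOS 1.4 is named in the submitters' processing notes, without its settings or scaling target. Trimmed means (2% off each end) were 131, 149 and 154, so the arrays were not at a common scale. The number of arrays limits the precision.

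Log2 was taken with no pseudocount. The platform annotation gave 1 gene for 34958 probe sets, several for 932 (left out) and none for 9211, and RefSeq (GRCm38.p6) changed 0 symbols. A gene took its probe set with the highest mean. Tests used limma 3.58.1 in R 4.3.3 with Benjamini-Hochberg adjustment over all 18116 genes, and the procedure was tested on simulated data. The rule for named genes was every ligand above background, a list of 23 well-known ligands, and their receptors. The members and gene lists were chosen with earlier results of these data known. Alternatives changed the limit, probe set rule, normalization, pseudocount (16), filter, variance model and replicates.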

Additional observations from a re-analysis of the deposited data

How the results depend on the processing

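The count of 10 ligand genes above background was 8 to 14 over 14 alternatives and 7 where only genes at or over the median signal were tested, which held 7 of the members. Ccl2, Ccl25, Il18 and Il33 were above background under all 15 alternatives, and Ccl5 under the 14 that tested it. Some of these alternatives could not change the outcome. Median scaling moves each array and its limit together, so the distance from the limit stayed the same. Ccl2, Ccl5, Il18 and Il33 had 1 probe set each, so a different probe set rule left their signal unchanged. Leaving out 1 array gave 9 to 10 ligands. The count over all genes was 9070 to 11062, and 9058 among the brighter genes. For single genes, 588 of 627 values under alternatives kept their direction and side of the threshold. This count includes median scaling, where no value could change, and the brighter genes, of which all 9058 passed. It also includes probe set rules for genes with 1 probe set.

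Chemokine receptors numbered 1 in place of 2 with the limit at the 99th percentile, with no variance moderation, among the brighter genes, and in each run without 1 replicate (1 to 1). Atypical receptors numbered 0 after removal of probe sets with _x, _s or _a suffixes, which left 2 of 5 genes, and 1 among the brighter genes. Interleukin receptors numbered 5 and 6 with the median probe set (its own limit and the reported one) and 7 among the brighter genes.

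The sign turned for these genes, in log2 units from the limit. After the same removal, Cxcl1 was at -1.87, Il17d at -1.14, Il17rc at -1.36 and Cxcl14 at -3.45. With the median probe set, Cxcl14 was at -1.49 and -1.51 and Lifr at -0.012 and -0.037. With 1 limit for all arrays (3.67), Il1b was at 0.013 and Il34 at 0.0054, and leaving out 1 replicate put Cxcl16 between -1.22 and 0.23 (without replicate 3); none of these 3 passed. The cause was not tested, apart from the change of probe set itself.

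No paired analysis was possible because all 3 arrays belong to 1 group. Only 1 summarised value per probe set and array was used, so a gene close to the limit can go unseen.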

Other observations

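Ligand genes of related function whose names fall outside the Ccl, Cxcl and Il pattern were above background in 5 of 15 measured cases. This was 33.3%, against 58.3% of all genes tested. Csf1, the growth factor of macrophages and microglia, was at 10.49, 10.59 and 10.78, above background on all 4 of its probe sets, while the other ligand of its receptor, Il34, was not. Mif, which encodes macrophage migration inhibitory factor, was at 11.58, 11.61 and 11.53, above background on 1 of 3 probe sets. Cklf, a chemokine-like factor, was at 7.07 ± 0.08. The gp130 cytokine genes Ctf1 and Clcf1 were at 6.47 ± 0.08 and 6.12 ± 0.43, while Lif and Osm, also of that family, were at 3.46 ± 0.17 and 3.94 ± 0.25 and did not pass. Tnf was at 1.06, 1.85 and 1.53, and the interferon genes Ifng and Ifnb1 were at 0.13 ± 2.53 and 3.48 ± 0.19.

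Probe sets annotated to several genes were kept out of all counts, and 6 of them name a chemokine or interleukin ligand. Of these, 5 lay over the limit on no array and 1 on every array. That one is 1447917_x_at, annotated to both Ntan1 and Il2, at 9.67, 9.70 and 10.07. The probe set of Il2 alone was at 0.97, 0.64 and 2.32, and that of Ntan1 alone at 9.09, 8.99 and 8.90. The 5 others name Ccl19, the Ccl21 genes, Ccl27a with Ccl27b (on both of their probe sets) and Il22, with means from -0.086 to 3.09.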
